A study of Mus musculus with 8 samples.

Results

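Among the m6A peaks of mouse embryonic fibroblasts (MEFs), 1421 regions carried a peak at or above a score of 3100, the value at which most of them stood, in 1 library and no peak at all in the other 3. They were selected on measured values: peaks of the 4 lists that shared at least 1 bp were merged into 21168 regions, and a region was kept when exactly 1 list contributed and its score, −10 times log10 of the peak's p-value, reached 3100. Of all merged regions, 56.2% were called in exactly 1 list, and 6.71% were called in exactly 1 list with such a score. Of the 5466 regions with a saturated peak, 26% were called in 1 list. The 1421 regions, called members in what follows, each held 1 peak and lay in 1310 genes.

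The cells were wild-type C57BL/6 MEFs from embryos at 13.5 days post-coitum, used at passages 5 to 6. Control cells stayed untreated in full medium and starved cells spent 2 h in nutrient-deprived medium. Each group had 2 replicates, and each replicate had an input library and a library immunoprecipitated (IP) with an m6A antibody, 8 samples in all. Nothing in the labels says whether the replicates came from separate embryos or cultures, so p-values measure the spread between these libraries, which may be technical. The 4 IP libraries have peak lists of 8974 to 10103 peaks, each called over the matching input. The lists hold no read counts, so the depth behind a peak is unknown. Of the 12 fibroblast marker genes, 7 to 8 had a peak in each list, and of the epithelial, endothelial, blood and pluripotent markers 0 to 1 per set did; a peak list shows that a gene carries a peak, not its level.

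N6-methyladenosine is laid on mRNA by a methyltransferase complex whose catalytic subunit is METTL3, mostly at adenosines in the DRACH context, of which GGAC is a common form. It is known to gather in long internal exons and around stop codons, and reader proteins of the YTH family bind it. In MeRIP-seq the mark is read as a peak, a stretch where antibody-bound fragments outnumber input fragments, and the sites inside a peak are not resolved.

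The sequences of the strongest members show what the antibody-bound stretches look like. Of the 16 members with the highest fold enrichment (4 per library), 9 were placed on a coding transcript and held GGAC within 200 nt of transcript around the peak centre. For 8 of these, 25 nt around the GGAC nearest to the centre are given 5′ to 3′ on the transcript's strand, read from GRCm38 (mm10), with GGAC in capitals.
Tex15 (control IP replicate 1, coding sequence, chr8:33582556-33582580, plus strand): ttactttcctGGACagccacaagca
Neurl1a (control IP replicate 1, 5′ UTR, chr19:47178932-47178956, plus strand): gcctcgggagGGACctggcgggagc
Vnn1 (control IP replicate 2, 3′ UTR, chr10:23905177-23905201, plus strand): gaagaaatcaGGACaaagacttgca
Ccdc85a (control IP replicate 2, coding sequence, chr11:28576811-28576835, minus strand): agggcttctgGGACcccagatcact
Clec2h (starved IP replicate 1, 3′ UTR, chr6:128676074-128676098, plus strand): gttgggcaccGGACaacctgagtag
Nap1l5 (starved IP replicate 2, 3′ UTR, chr6:58906221-58906245, minus strand): tgtgagaactGGACttgagactgtt
Macc1 (starved IP replicate 2, coding sequence, chr12:119446662-119446686, plus strand): cactgtttgtGGACacaactatgtg
Zbtb42 (starved IP replicate 2, coding sequence, chr12:112679670-112679694, plus strand): tacctgtcgaGGACgtcctggctgc
A match to GGAC is a description of the sequence and not a mapped site. In Macc1 the adenosine of the motif lay 2 nt past the peak centre and in Tex15 18 nt past it. Zbtb42 held 5 copies of GGAC in its 200-nt window. Of the other 7, Cip2a, Cep135 and Pde4dip held no GGAC in the window, and Gm14308, Gm10855, AK082264 and Adamts3 could not be placed on a coding exon.

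Members were more numerous in the starved libraries. The lists of control IP replicates 1 and 2 gave 199 and 174 members, and those of starved IP replicates 1 and 2 gave 561 and 487, so the groups did not overlap. The ratio of starved to control members was 2.81. Saturated peaks as a whole moved the same way, with 1717 and 1306 in the control lists and 2785 and 2491 in the starved lists. Unsaturated single-library regions went the other way, with 2919 and 2944 in the control lists and 2444 and 2167 in the starved lists. The higher number of members therefore does not mean more single-library regions of any score. Members made up 11.6% and 13.3% of the saturated peaks of the control libraries and 20.1% and 19.6% of those of the starved libraries. When each list was allowed only its 1306 highest-ranked saturated peaks, the ratio of starved to control members was 1.88. The score was part of the choice of members, so these numbers carry no test.

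**Figure D1:**
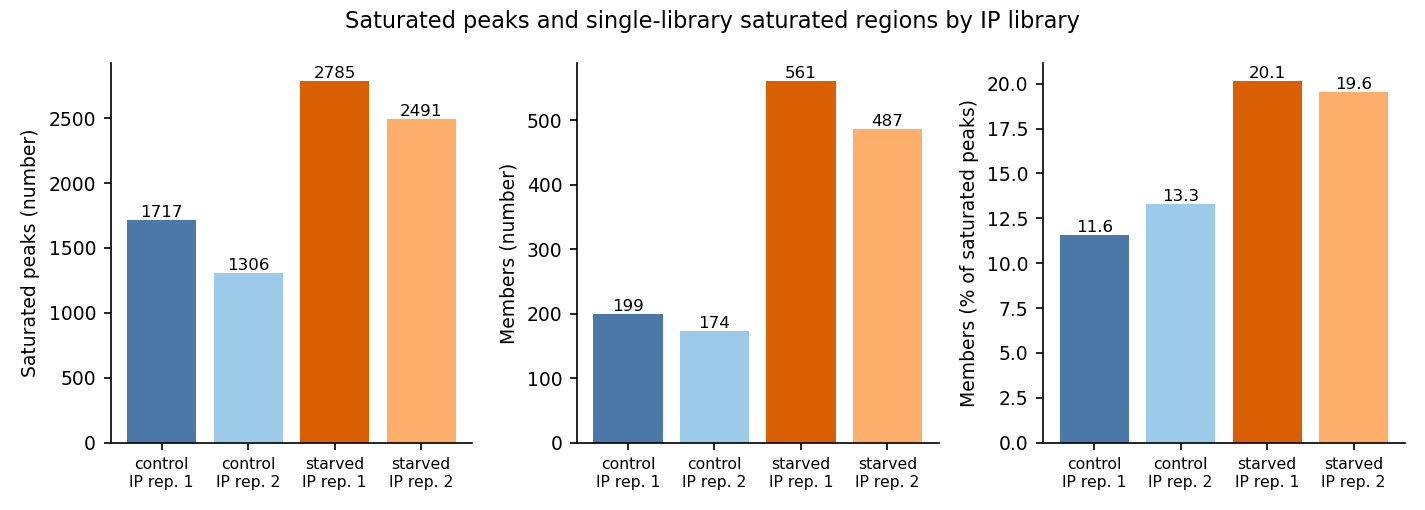
Number of saturated peaks, number of members and members as a percentage of saturated peaks (y axes, bars from 0) in each of the 4 IP libraries (x axis). The starved libraries had 561 and 487 members and the control libraries 199 and 174.

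Most scores stood at the limit itself. Of the members, 1352 stood at 3100 exactly and 69 above it, up to 3233.06. The 3 single-library regions just below the limit were in Fam177a (score 3099.05, starved IP replicate 1, 978 bp, fold enrichment 12.4), Tas1r1 (3097.36, starved IP replicate 2, 355 bp, fold 146.34) and Slc38a10 (3096.93, starved IP replicate 1, 1087 bp, fold 13.78). The score of 3100 does not rank members that share it, and fold enrichment, the ratio of IP to local input background, was used to order them.

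Fold enrichment of members ran from 5.33 to 758.9 with a median of 65.09 and quartiles of 35.63 and 123.58. It was at least 100 in 445 members and under 10 in 8. Control libraries had medians of 87.73 and 82.21, starved libraries of 57.31 and 58.86. Saturated regions shared by 2 or more lists had lower medians in every library (45.1 and 55.05 in control, 37.5 and 41.6 in starved), and unsaturated single-library regions had medians of 10.6 to 11.5. The highest folds of shared saturated regions, 1650.65 to 3535.3 by library, exceeded that of every member. These values come from the same peak calls as the score and are a description.

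Members were narrow. The median width was 299 bp (quartiles 235 and 348), and library medians lay between 296 and 304 bp. Saturated regions shared by 2 or more lists had peaks with median widths of 423 to 517.5 bp by library, and unsaturated single-library regions of 310 to 337 bp. Of the members, 430 (30.3%) were 200 bp to under 250 bp wide and 108 (7.60%) were 500 bp or wider, against 13.7% and 47.6% of the saturated peaks in shared regions. At the lower end, 47 members were 200 bp wide, the narrowest width in the set, and at the upper end 9 reached 1000 bp. Within each of 5 width bands the median fold of members was higher than that of shared saturated peaks, for example 67.3 against 52.4 at 200 bp to under 250 bp and 48.3 against 34.8 at 500 bp or more. Width enters both the overlap and the score, so it too is only described.

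**Figure D2:**
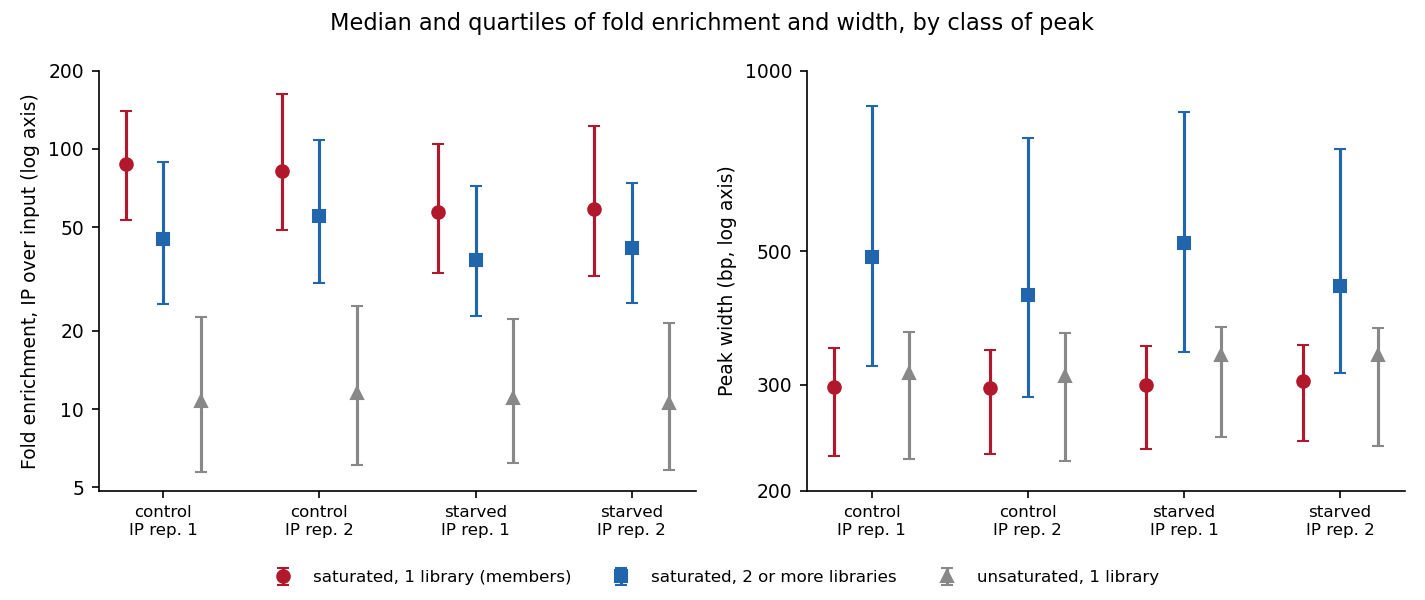
Fold enrichment (left, log axis) and peak width in bp (right, log axis) by IP library for members, saturated regions shared by 2 or more libraries and unsaturated single-library regions. Symbols are medians and bars the quartiles; in all 4 libraries members had the highest median fold and the lowest median width.

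The widest member was in Srrm2, which encodes a splicing protein of nuclear speckles. It covered 2337 bp of exon 11 (6569 bp long) in starved IP replicate 1, with a fold of only 10.81; Srrm2 also had 2 peaks in starved IP replicate 2 and none in either control library. Next came Znf512b, a zinc finger gene (1294 bp, starved IP replicate 2, fold 43.14), and Smg5, a factor of nonsense-mediated mRNA decay (1195 bp in the 3′ UTR, starved IP replicate 2, fold 16.18). Among the 200-bp members, the first 3 by genome position were in Atic, a purine synthesis enzyme (control IP replicate 2, fold 17.37), Rasal2, a Ras GTPase-activating protein (starved IP replicate 1, fold 116.98), and Cdk9, the kinase of the elongation factor P-TEFb (starved IP replicate 2, fold 36). The Rasal2 member was as long as exon 13, which is 200 bp.

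Many members ended where an exon ends. Of the 1257 members whose centre fell in an exon of a coding transcript, 597 (47.5%) had an edge within 1 bp of an edge of that exon, and 153 (12.2%) spanned the whole exon. The same shares were 57.5% and 15.7% for peaks of shared saturated regions, and 46.0% and 12.4% for unsaturated single-library regions. Members spanning a whole exon were 200 to 874 bp wide (median 223) and had a median fold of 68.6, beside 62.2 for the other placed members. Cep135 (exon 8, 216 bp) and Pde4dip (exon 43, 227 bp), both centrosomal proteins, were members whose width equalled their exon.

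Members in internal exons sat in shorter exons than shared saturated regions did. The median length of the internal exons that held member centres was 237 and 261 bp in the control libraries and 255 and 252.5 bp in the starved libraries. For peaks of shared saturated regions it was 601 and 513 bp in control and 608 and 560 bp in starved. Unsaturated single-library regions had 265 and 252 bp in control and 265.5 and 252 bp in starved, close to members. Of the 1257 placed members, 100 were wider than the exon that held their centre. No test was made of this pattern.

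Of the 1257 placed members, 667 were centred in coding sequence, 506 in the 3′ UTR and 84 in the 5′ UTR, and 139 lay within 100 nt of the stop codon. By library the share near the stop codon was 8.28% to 12.3% of placed members, beside 12.2% to 13.1% of all placed peaks. The 5′ UTR share was 3.51% to 7.36%, beside 4.41% to 5.30%. The coding share was 60.8% and 57.2% in the control libraries (59.0% ± 2.5, SD, n = 2) and 55.1% and 46.2% in the starved libraries (50.7% ± 6.3, n = 2). Over all peaks of the lists the share was 49.9% and 51.6% in control and 52.0% and 50.8% in starved. The difference of members, starved minus control, was -8.36 percentage points without overlap between the groups, but with 2 libraries against 2 the smallest p an exact permutation test can give is 0.333, and this was the p (adjusted p = 0.333 over 3 measures). Without starved IP replicate 2 the difference was -3.84 points, and without that library, without control IP replicate 1 (-8.80) or with equal numbers of saturated peaks per list (-5.96) the groups overlapped. A lower coding share after starvation was not particular to members. The mean for shared saturated regions fell from 64.2% (control) to 60.1% (starved), and the groups did not overlap. For unsaturated single-library regions the mean rose from 43.2% (control) to 44.5% (starved), and the groups overlapped. Against shared saturated regions of the same library, the coding share of members was lower in 4 of 4 libraries, with a mean difference of -7.30 percentage points (54.9% ± 6.2 against 62.1% ± 2.3, n = 4). Against unsaturated single-library regions it was higher in 4 of 4 libraries, by 11.01 points on average (43.8% ± 2.0 in the latter). Each of these differences had p = 0.125 in a two-sided exact sign-flip permutation test over 4 libraries, the smallest p that test can give, and an adjusted p of 0.208 over the 5 comparisons whose outcome the rule does not fix. In this and the later sign-flip tests the 4 libraries were not independent. Shared regions recur in several lists, and whether a region is a member depends on all 4 lists. The difference from unsaturated regions ranged from 19.3 points in control IP replicate 1 to 3.23 in starved IP replicate 2.

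GGAC within 200 nt of spliced transcript at the peak centre was found in 56.1% and 55.2% of placed members in control and in 63.4% and 61.6% in starved. Over all peaks of the same lists it was found in 62.1% and 63.5% in control and 64.5% and 64.6% in starved. Among members the starved libraries had 6.87 percentage points more (62.5% ± 1.3 against 55.7% ± 0.68, n = 2 each, exact permutation p = 0.333, adjusted p = 0.333). The direction was the same in the other classes. Shared saturated regions had 64.9% and 66.3% in control and 66.5% and 68.6% in starved. Unsaturated single-library regions had 56.8% and 59.6% in control and 61.9% and 59.7% in starved. Members held GGAC less often than shared saturated regions in 4 of 4 libraries, with a mean difference of -7.48 points (59.1% ± 4.1 against 66.6% ± 1.5, n = 4, exact permutation p = 0.125, adjusted p = 0.208). In a window of 100 nt the mean difference was -3.01 points and held in 3 of 4 libraries (exact permutation p = 0.375), with 45.1% of members against 43.7% of shared saturated regions in starved IP replicate 1. Against unsaturated single-library regions the mean difference was -0.40 points, with either sign in 2 of the 4 libraries (exact permutation p = 0.875, adjusted p = 0.875). The broader motif DRACH was found in 97.6% to 99.3% of placed members by library and so separated nothing.

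**Figure D3:**
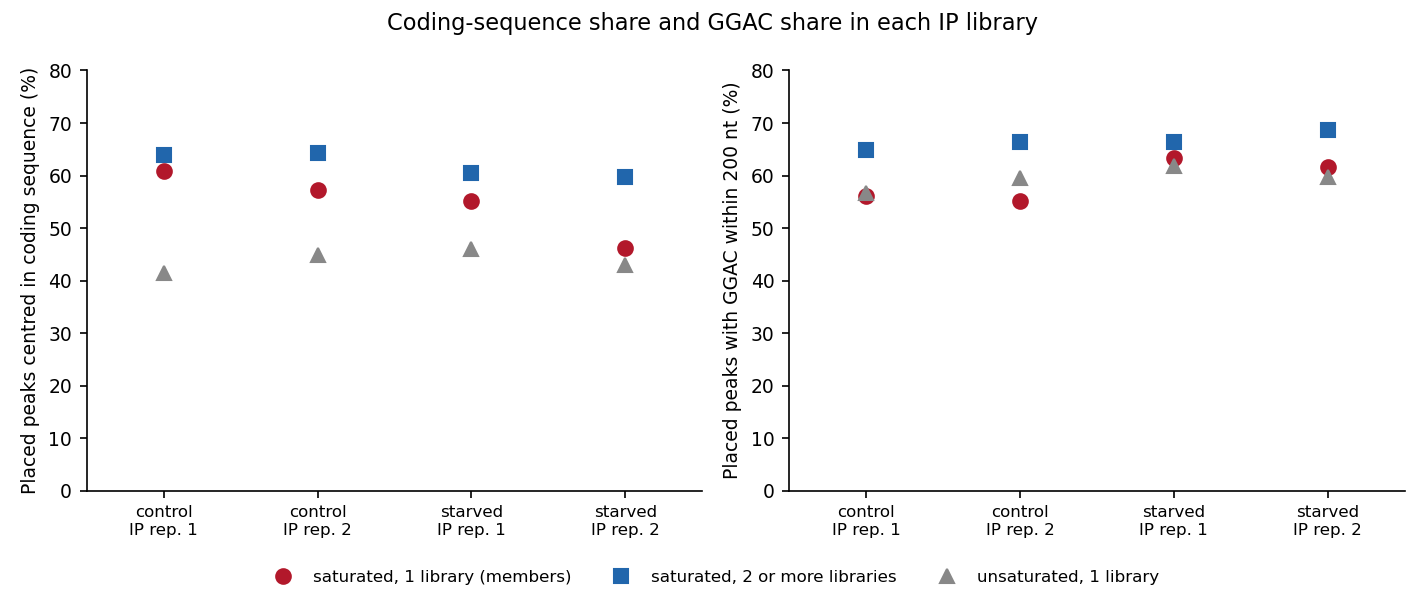
Share of placed peaks centred in coding sequence (left) and share with GGAC in the 200 nt around the centre (right), in percent, for each IP library. Each symbol is 1 library's share; members lie below shared saturated regions in both panels in all 4 libraries, and above unsaturated single-library regions in the left panel only.

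A larger part of the members than of other regions could not be placed on a coding exon. The centre of 120 members lay outside the exons of the gene's coding transcripts, and 44 were in genes with no coding transcript. By library the unplaced share was 14.1% and 16.7% in control and 9.80% and 10.7% in starved, beside 4.39% to 7.40% for shared saturated regions and 7.66% to 9.59% for unsaturated single-library regions. The control libraries had the higher unplaced share among members, but this was not particular to members. Unsaturated single-library regions had 9.59% and 8.15% in control and 7.94% and 7.66% in starved. All peaks had 6.65% and 6.44% in control and 5.94% and 6.07% in starved. Shared saturated regions had 5.98% and 7.40% in control and 4.39% and 5.53% in starved.

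The genes that held members were mostly genes with other m6A peaks. For 1043 members (73.4%) the gene had a peak in at least 1 other list, and for 458 (32.2%) in all 3 other lists. In the remaining 378 (26.6%) no other list had a peak in the gene. For 65 of these 378 the gene had a further peak in the member's own list, and for 313 the member was the gene's one peak in the series. By library the share with the gene in another list was 65.3% and 70.7% in control (68.0% ± 3.8, n = 2) and 76.5% and 74.1% in starved (75.3% ± 1.7, n = 2), a difference of 7.29 points without overlap (exact permutation p = 0.333, adjusted p = 0.333). The difference was 13.8 points without control IP replicate 2 and 3.14 points at a score of at least 2000, and without starved IP replicate 1 (5.67 points) the groups overlapped. Unsaturated single-library regions had 73.8% and 76.4% in control and 74.4% and 76.4% in starved. The mean difference of members from these was -3.59 points, and members were lower in 3 of 4 libraries (exact permutation p = 0.25, adjusted p = 0.312), and the difference was -0.44 points at a score of at least 2000 and -2.39 with folds of at least 5. Over all peaks of a list the share was 91.7% to 92.8%; in regions shared by lists it is close to 100% by construction, so the difference of -28.3 points from shared saturated regions is fixed by the rule.

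The replicate of the same group did not stand out as the list in which the gene was found. Members of control IP replicate 1 had their gene in 45.7% of cases in control IP replicate 2, beside 43.2% and 38.7% in starved IP replicates 1 and 2. For control IP replicate 2 the shares were 52.3% in the other control list and 50.0% and 52.9% in the starved lists. Members of starved IP replicate 1 had their gene in the other starved list in 52.4% of cases and in the control lists in 56.7% and 56.5%. For starved IP replicate 2 these were 55.4%, 55.2% and 52.8%. The 4 lists are each compared with the same other lists, so these shares are not independent and were not tested.

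**Figure D4:**
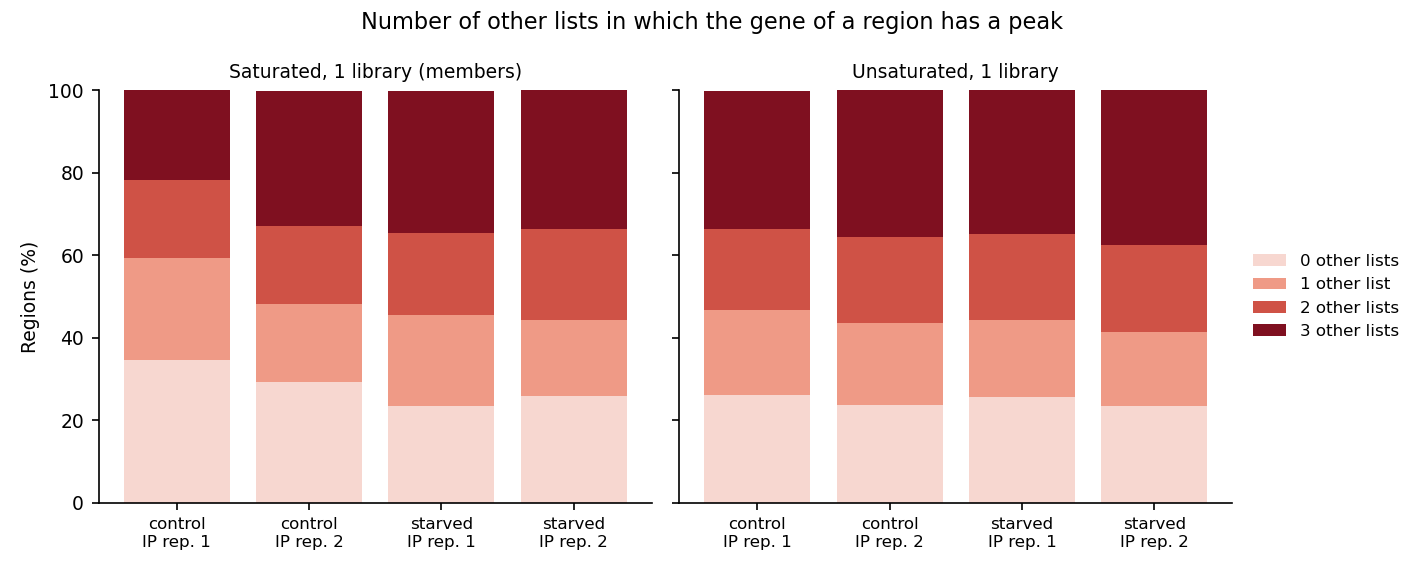
Percentage of regions (y axis) whose gene had a peak in 0, 1, 2 or 3 other lists, by IP library, for members (left) and unsaturated single-library regions (right). The lightest segment, genes found in no other list, spans 23.5% to 34.7% of members and is largest in control IP replicate 1.

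In 474 of the 1043 members with the gene elsewhere, a peak of the gene in another list was saturated as well. In 746 of the 1043 (71.5%) the member's fold exceeded the highest fold of the gene's peaks in the other lists. Median fold was 59.9 in the members with the gene elsewhere, beside 34.6 for the highest fold of the same genes in the other lists. Members whose gene had no peak in another list had a higher median fold (92.5) than those whose gene was in all others (50.9), and this order held in all 4 libraries. Their median widths were 307.5 and 284.5 bp. Fold belongs to the choice of members, so these are descriptions.

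Most members were not close misses of an overlap. The nearest peak of another list lay at a median distance of 4983 bp, within 10 bp for 8 members, within 100 bp for 70, within 500 bp for 267 (18.8%) and beyond 10 kb for 559 (39.3%). Library medians were 8357 and 6876 bp in control and 4659 and 3525 bp in starved, and 3624 to 4057.5 bp for unsaturated single-library regions. The share within 500 bp was 17.1% and 13.2% in control and 19.6% and 20.5% in starved. For unsaturated single-library regions it was 20.7% and 20.6% in control and 19.8% and 21.2% in starved. Members of the starved libraries were thus close to these regions. Members of the control libraries lay farther from other lists' peaks, as the unsaturated regions of control had median distances of 3776 and 3826 bp. The nearest were in Agrn, a basement membrane proteoglycan (starved IP replicate 2, fold 20.52), and Man2a2, a Golgi mannosidase (starved IP replicate 1, fold 29.34), each with the next base belonging to a peak of control IP replicate 1. Ttc23, a tetratricopeptide repeat protein of the primary cilium, followed at 4 bp (control IP replicate 1, fold 93.25).

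**Figure D5:**
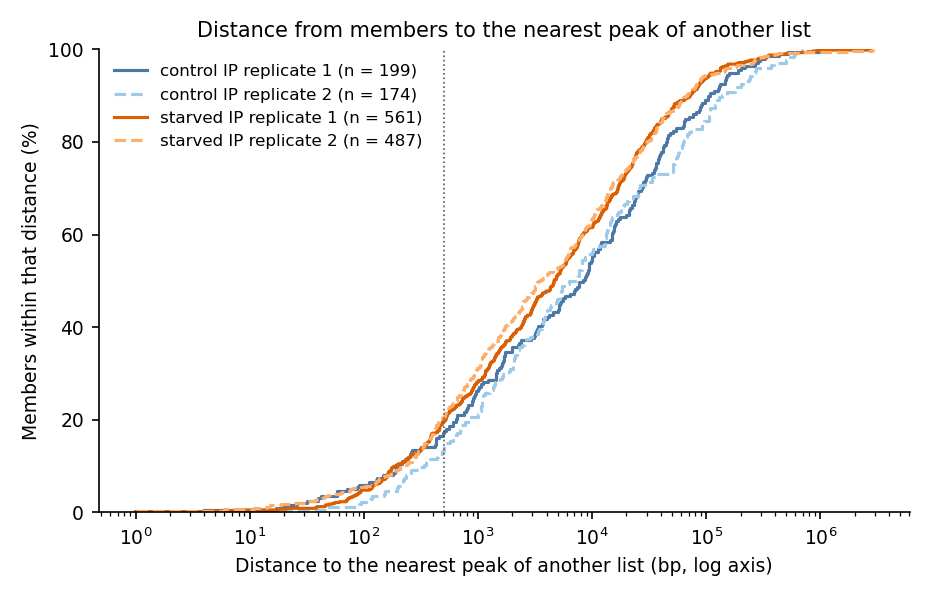
Cumulative percentage of members (y axis) within a given distance of the nearest peak of another list (x axis, bp, log axis), by IP library, with a dotted line at 500 bp. At 500 bp and at 10 kb the starved curves lie above the control curves, and fewer than 21% of members of any library lie left of the dotted line.

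The highest fold of all members was in Nap1l5, an imprinted, intronless relative of the nucleosome assembly proteins. Its member lay in the 3′ UTR at chr6:58906043-58906405 with a fold of 758.9 in starved IP replicate 2. Control IP replicate 1 had a Nap1l5 peak 76 bp away with a fold of 42.84, and the other 2 lists had none. Tex15, a germ cell gene needed in meiosis and transposon silencing, had the highest fold among members of the control libraries, 404.4 at chr8:33582381-33582720 in exon 3 (control IP replicate 1). Tex15 had peaks in every list, with highest folds of 60.16 in control IP replicate 2, 350.74 in starved IP replicate 1 and 82.37 in starved IP replicate 2, the nearest of them 429 bp away. In both genes the transcript was thus called in more than 1 library, at different positions.

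Pde4dip, Csnk1e and Cep135 also had high members, with the gene in other lists at weaker folds. Pde4dip reached 513.37 in starved IP replicate 1, with highest folds of 6.88 and 69.11 in the control lists and 19.11 in starved IP replicate 2. Csnk1e, a clock-regulating casein kinase, reached 371.85 in starved IP replicate 2, in the 5′ UTR of a 3-exon transcript. Its highest folds were 85.95 and 41.63 in the control lists and 169.25 in starved IP replicate 1. Cep135 reached 521.86 in starved IP replicate 1 and had 1 peak elsewhere, with a fold of 171.76 in control IP replicate 2.

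Most of the other leading members were in genes seen in 1 list only. In control IP replicate 1 these were Cip2a, an inhibitor of the phosphatase PP2A (fold 295.57, coding exon 18), Neurl1a, a ubiquitin ligase (268.63, exon 1), and the predicted gene Gm14308 (265), whose member had 17 near-identical copies in the genome. In control IP replicate 2 they were Gm10855 (366.81), AK082264 (326.05), Vnn1, a pantetheinase (286.27), and Ccdc85a, a coiled-coil protein (282.39). In starved IP replicate 1 they were Adamts3, a procollagen-processing protease (548.56), and Clec2h, a C-type lectin (482.42). In starved IP replicate 2 they were Macc1, a transcriptional regulator of MET (522.2), and Zbtb42, a zinc finger factor (511). The nearest peak of any other list was between 29377 bp (Clec2h) and 437309 bp (Adamts3) away in these 11 genes.

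Gene families took shares of the members close to their shares of all regions in most cases. Zinc finger genes held 65 members (4.57%, beside 4.44% of all regions), small GTPases and their regulators 30 (2.11% beside 2.01%), ubiquitin ligases and deubiquitinases 28 (1.97% beside 2.40%), solute carriers 20 (1.41% beside 1.68%), and collagens, laminins, integrins and related matrix genes 18 (1.27% beside 1.13%). Predicted genes with Gm or Rik symbols held 60 members (4.22% beside 2.83%), and cadherins and protocadherins 13 (0.91% beside 0.53%). The families were not tested against each other, and the counts of the last are small. By library the zinc finger genes had 14 and 4 members in control and 25 and 22 in starved, and the cadherins 5 and 1 in control and 2 and 5 in starved.

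The leading members of most families illustrate the range. Zbtb42 led the zinc finger genes and Adamts3 the matrix genes. Kif5c, a neuronal kinesin heavy chain (346.26), Trim45, a ubiquitin ligase (341.47), Cdh6, a cadherin of kidney and neural crest (340.67), Tmem196, a transmembrane protein (327.87), and Ccdc40, a factor of motile cilia (312.68), were all in starved IP replicate 2. Also from that library were Dhx38, a splicing helicase (288.76), Rasgef1a, a Ras exchange factor (274.29), and the ribosomal protein pseudogene Mrps36-ps1 (259.9). Hoxb8, a homeobox factor (257.89), Bag4, an HSP70 co-chaperone (97.55), and the linker histone H1f10 (24.54) came from starved IP replicate 1. Of these, Dhx38 and Bag4 had peaks in all other lists, Trim45 in 2, and Kif5c and Cdh6 in 1.

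Members with near-identical copies elsewhere in the genome (at least 95% identity over at least 90% of the peak) numbered 62 (4.36%), 35 of them with a copy on their own chromosome and 16 with 5 copies or more. By library the share with a copy was 2.67% to 6.90% of members, beside 5.42% to 5.99% of all peaks. It was 5.67% to 8.65% for shared saturated regions and 3.89% to 5.40% for unsaturated single-library regions, so copies did not set members apart. Of the 60 members in predicted genes, 23 had a copy, and of the 65 in zinc finger genes 4 did. The most copies were found for Gm10718 (36, control IP replicate 1, fold 185.87) and Gm10717 (34, starved IP replicate 1, fold 140.78), both at the start of chromosome 9, and Gm3940 (23, starved IP replicate 2, fold 171.13). Gm14431 alone held 6 members on chromosome 2, 4 from control IP replicate 2 (folds 97.53 to 192.14) and 2 from starved IP replicate 2 (178.33 and 179.93). The 4 from control IP replicate 2 were each 295 bp wide with 14 copies, and the pair from starved IP replicate 2 were 278 bp with 19 copies. Whether reads of such copies could be assigned to 1 place was not tested, so the placement of all 62 members with a copy is uncertain. Those named in the text include the Gm14308 member. They also include the Mrps36-ps1 member and the Slc29a3 member of control IP replicate 2, with 1 copy each.

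Of the 1310 genes, 1213 held 1 member, 87 held 2 and 10 held 3 or more. In 77 genes the members came from 2 or more libraries: 6 genes had members from both control libraries, 36 from both starved libraries and 41 from a control and a starved library. Beside Gm14431, the genes with 3 or more were Syne1 (4), Cspg4b, Fyco1, Kcnq1ot1, Man2a2, Notch2, Slc29a3, Sugp2 and Zfp451 (3 each). All 9 had peaks in at least 2 other lists for each of their members.

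Syne1, which encodes the giant nuclear envelope protein nesprin-1, had 1 member in every library. They lay in the 3′ UTR (exon 146, control IP replicate 1, fold 31.38), exon 136 (control IP replicate 2, 81.09), exon 103 (starved IP replicate 1, 104.16) and the 5′ UTR (exon 2, starved IP replicate 2, 324.67). The same transcript was thus saturated in each library at a different exon. The 3′ UTR member stopped 20 bp short of a peak of starved IP replicate 2, and the 5′ UTR member had no other list's peak within 257004 bp.

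Zfp451, a SUMO ligase gene, had 5, 5, 7 and 6 peaks in control IP replicates 1 and 2 and starved IP replicates 1 and 2. Its 3 members were spread over the 11478-bp exon 4 of the 4-exon transcript on which they were placed. They came from control IP replicate 2 (54.62), starved IP replicate 1 (36.79) and starved IP replicate 2 (91.43). Notch2, a receptor of Notch signalling, had 3 peaks in each control list and 7 in each starved list; its 3 members were all in the coding sequence of starved libraries, with folds of 12.87 to 35.61. Kcnq1ot1, the imprinted antisense transcript of the Kcnq1 locus, had 6, 5, 3 and 5 peaks, with members in control IP replicate 1 (95.83), control IP replicate 2 (270.74) and starved IP replicate 2 (130.48). Slc29a3, a lysosomal nucleoside transporter, had a member of control IP replicate 2 (26.58) and one of starved IP replicate 1 (21.92) side by side in its 3′ UTR, 95 bp apart. These neighbouring members were saturated calls of different libraries that did not touch.

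The fixed list of 65 autophagy and lysosome genes held 8 members in 6 genes, 5 in starved IP replicate 1, 3 in starved IP replicate 2 and none in the control libraries. That is 0.56% of members, beside 0.52% of all regions, and 1048 of all 1421 members came from starved libraries. Genes of the list with any peak numbered 34 and 30 in control and 37 and 40 in starved, while all genes with a peak numbered 6387 and 6170 in control and 6159 and 5839 in starved. Zfyve26, which acts in the reformation of lysosomes, had 2 members in starved IP replicate 1 (folds 145.62 and 78.43) and highest folds of 24.87 and 81.29 in the control lists and 23.08 in starved IP replicate 2. Epg5, a tether in autophagosome-lysosome fusion, had a member in each starved library (112.55 and 33.01) and peaks in all lists. Foxo1, a transcription factor of starvation responses, had a member in its coding sequence in starved IP replicate 1 with a fold of 56.17, 46 bp from a peak of control IP replicate 2, and highest folds of 8.73, 8.12 and 7.67 in the other lists. Foxo3, its paralogue, had a member in the 3′ UTR in starved IP replicate 1 (25.15, 506 bp wide, centre 307 nt past the stop codon) and highest folds of 26.17 and 19.64 in the control lists and 41.84 in starved IP replicate 2. Bmf, a BH3-only protein (51.37), and Lamp2, a lysosomal membrane protein (12.25), completed the list, both in starved IP replicate 2. All 6 genes except Bmf had a peak in at least 1 control list.

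Of the 44 genes around mTORC1 and AMPK, 4 held 5 members, spread over the 4 libraries (0.35% of members beside 0.30% of all regions). Rptor, the mTORC1 scaffold, had one in control IP replicate 1 (69.49), Castor1, an arginine sensor, one in starved IP replicate 1 (69.31), and Fnip1, a folliculin partner, one in control IP replicate 2 (33.85). Tsc1, a subunit of the complex that restrains mTORC1, had members in starved IP replicate 1 (50.66, coding sequence) and starved IP replicate 2 (38.22, 3′ UTR). Castor1 was the one gene of these 4 with no peak in another list. Among 20 m6A writers, erasers and readers, Mettl16, a methyltransferase of U6 and Mat2a RNA, held the 1 member, spanning 200 bp of exon 3 in control IP replicate 1 with a fold of 80.74. That is 0.070% of members, beside 0.27% of all regions and 0.52% of shared saturated regions. Of the fibroblast markers, Pdgfra (control IP replicate 2, fold 91.55) and Col3a1 (starved IP replicate 1, fold 7.41) held 1 member each.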

How the data were processed

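Samples were grouped by their titles. Reads were trimmed (Cutadapt) and mapped to mm10 (HISAT2 2.0.4 per the labels) by the authors, who called peaks for each IP library over its own input with MACS2 and kept peaks that overlap mRNA exons, without pooling replicates. The deposited score is −10 times log10 of the peak's p-value as the authors' caller gave it, with many peaks at 3100 and some above. The deposited fold enrichment is the authors' ratio of IP to local input background. The deposited false discovery rate is in percent, and the deposited peak width (another unit) is in bp. The column names are those of an earlier MACS than the methods name, so the caller's version is uncertain. The authors' table of differential sites holds fold changes and p-values of their own comparison and was not used. The number of per-sample columns without a mapped sample was 0. Depth per library is unknown.

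Peaks sharing 1 bp or more were merged over the 4 IP libraries. Each peak was placed by its centre on a coding transcript of its gene (GENCODE M21, GRCm38, the assembly of mm10). Among the coding transcripts whose exons held the centre, the one with the longest coding sequence was used. Where the gene's longest form lacked the centre this was a shorter isoform. Segments and exon numbers are those of the transcript used and may differ in the gene's main form. Motifs were searched on the transcript strand in 200 nt of spliced sequence. Copies were found with blastn 2.17.0. Python 3.11.15, numpy 2.4.6, pandas 2.3.3 and matplotlib 3.10.9 were used. Shares per library were compared by two-sided exact permutation tests, between groups over 3 splits and between classes of region by sign flips over 4 libraries, with Benjamini-Hochberg adjustment over 3 and 6 tests; 1 of the 6 is fixed by the choice of members, so values adjusted over the other 5 are printed, a change made after seeing the data. All 22 quantities tested on simulated data (4000 regions) were recovered. The members, gene lists and tests were chosen with earlier results of these data known. Genes were named by a rule: the 4 highest folds per library, the 3 widest and 3 narrowest members (ties by position), genes with 3 members or more, the highest folds whose gene was in no or all other lists, the 3 nearest to another list's peak, the leading member of each family, all members in the autophagy, mTORC1 and m6A lists, the 3 with most copies and the 3 regions just under the score limit. Some members that the rule names are not reported here. Alternatives were another overlap, merging distance, score, fold minimum, list size, motif window and motif, leaving out each library and a replicate block.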

Additional observations from a re-analysis of the deposited data

How the results depend on the processing

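The 8 tested differences that the choice of members does not fix kept their direction in 95 of 102 recomputations. These include the replicate block, which leaves the differences between starved and control members unchanged by construction. No p could fall below 0.125, the smallest that the sign-flip test over 4 libraries can give. The GGAC difference between members and unsaturated single-library regions, -0.40 points, became positive with peaks up to 100 bp apart merged (0.219), a 100-nt window (2.32), DRACH in place of GGAC (0.344), no peaks with copies (0.522), and without either control library. Without 1 library it ran from -0.286 to 1.31. That from shared saturated regions was -3.01 with a 100-nt window and -0.71 with DRACH. The GGAC difference between starved and control members was -1.11 with DRACH. The number of members was 2236 at a score of at least 2000. The mean of the library medians of fold (71.5) was 51.8 at that score, 66.5 with folds of at least 5, 88.4 with equal numbers of saturated peaks per list, and 61.5 to 72.0 without 1 library. That of width (299.5 bp) was 301.75 with equal list sizes, 303 with folds of at least 5, and 303.17 to 308.33 without 1 library. The mean share within 500 bp (17.6%) was 13.5% after merging across 100 bp, 15.3% with equal saturated peaks, and 13.7% to 15.5% without 1 library. The causes were not tested. Paired by replicate number as a replicate block, the differences between starved and control members stayed at -8.36, 6.87 and 7.29 points, with 0.5 as the smallest p that 2 pairs allow; the numbers are not known to mark a shared culture. The alternatives with equal saturated peaks or without copies, and those for the ratio of members, were chosen after seeing the data. Without read counts, a missing peak cannot be read as missing methylation.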
